A study of Mus musculus with 12 samples.

Results

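Ephrins, semaphorins, netrins and Slits, with their receptors and the Nogo receptor Rtn4r, were followed in the adult left ventricle after Nkx2-5 had been deleted from the trabecular myocardium before birth. The members were all probes whose gene name begins with Epha, Ephb, Efna, Efnb, Sema, Plxn, Ntn, Unc5, Slit or Robo, with the Slitrk genes left out, together with Nrp1, Nrp2 and Rtn4r. This gave 103 probes of 73 genes out of the 55681 probes on the array. Unc50 and Unc5cl were caught by their names alone and are not netrin receptors.

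These families steer growing axons and, with many of the same molecules, growing blood vessels. Ephrins are held in the membrane of one cell and bind Eph receptor tyrosine kinases on its neighbour, so that both cells receive a signal. Semaphorins bind plexins, and the secreted ones bind through neuropilins. Netrins repel cells that carry Unc5 receptors, Slits act through Robo receptors, and Rtn4r binds the Nogo protein and stops the growth of axons. In the heart they are known for arterial and venous identity, for the path of the coronary vessels and for the pattern of sympathetic nerves.

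RNA came from the left ventricle, free wall and apex without the septum, of mice aged 6 months, with 4 mice per group and 1 mouse per array. In Nkx2-5ΔTrbE10 mice (TrbE10, Nkx2-5∆trab in the sample labels) tamoxifen had been given to the pregnant mother at E10.5 and E11.5, while trabeculae form. In Nkx2-5ΔTrbE14 mice (TrbE14, Nkx2-5∆comp in the labels) it was given at E13.5 and E14.5, while trabeculae compact. Per the methods, all 3 groups carry the floxed Nkx2-5 allele, the mutants also carry Cx40-creERT2, and the controls are littermates with no Cre, whereas the labels call the controls non-injected. Cx40-creERT2 is a tamoxifen-dependent Cre placed in the Cx40 (Gja5) gene, which is on in trabecular myocardium and also in arterial endothelium. In the mutants that gene therefore carries the Cre, and deletion reaches only the cells in which it was active at the time of injection and their descendants. The paper reports deletion in much of the ventricular myocardium after the early injections and in the subendocardial zone after the later ones. In whole tissue, fewer cells of a type and less RNA per cell cannot be told apart.

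Signals are given as log2 of the scanner's intensity after quantile normalization between arrays, and a probe passed the background filter when at least 3 of the 4 arrays of some group lay well above background. A probe was called at a Benjamini-Hochberg adjusted p under 0.05 in limma, over all 24593 probes that passed. Nkx2-5 itself, whose probe reads the whole tissue, fell in TrbE10 hearts, with a log2 change of -0.66 (SE 0.14, limma adjusted p = 0.0459), and was not called in TrbE14 hearts, at -0.59 (SE 0.14, limma adjusted p = 0.106). Mean signals of 9 ventricular cardiomyocyte markers lay between 16.07 and 16.27 on all 12 arrays. Slide and group cannot be told apart for TrbE10, whose 4 arrays lay on a slide with no other group of this series, while TrbE14 and control hearts shared 1 slide. Y-linked signal was present on 1 control, 2 TrbE10 and 3 TrbE14 arrays. The array with the lowest signal of the clock gene Dbp in each group was also 1 of these 6. With 4 arrays against 4, an exact two-sided permutation test can give no p below 0.0286, and precision is limited by having 4 arrays a group.

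Of the 103 probes, 63 passed the filter, for 55 genes. The filter was passed in all 3 groups by 54 of the 63, and 9 passed through 1 or 2 groups. No probe passed for 18 genes, and 12 of these were never well above background on any array. The 18 were Epha3, Epha6, Epha8, Epha10, Ntn5, Ntng1, Ntng2, Plxna3, Robo2, Robo3, Sema3d, Sema3e, Sema4f, Sema4g, Slit1, Slit2, Unc5cl and Unc5d.

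The 7 genes called in either mutant are shown by the first 30 of the 60 bases of the probe that measured each, since the result rests on them and Nrp2 has a pair that can be set beside each other. The sequences run 5′ to 3′ on the strand of the transcript, and no capitals are used.
Unc5b: cctgttcgtccattctgtaaataacttgta
Efnb2: gtcatcggttggctacgttttggttctatg
Efna3: aagaggcaaatatgccccagagagaacaaa
Ephb2: accagatccagtctgtagaggtttgacatt
Sema5b: tggagagtagagatggcagagaatgggttc
Nrp2: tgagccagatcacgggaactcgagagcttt
Nrp2, other probe: ggtttctgttggctgtcattgtcatctcca
Rtn4r: tcgcggtatatagagatatgaattttattt
In mm9, the build of the array files, these bases lie at chr10:60225428-60225457 (Unc5b, minus strand), chr8:8618207-8618236 (Efnb2, minus), chr3:89119011-89119040 (Efna3, minus) and chr4:136211233-136211262 (Ephb2, minus). Those on the plus strand lie at chr16:35663660-35663689 (Sema5b), chr1:62865129-62865158 and chr1:62843298-62843327 (Nrp2, in the order above) and chr16:18152423-18152452 (Rtn4r). No annotation of that build was used here, so exon and untranslated region are not given. Of these probes that of Rtn4r is the poorest in G and C, at 31.7% of its 60 bases, and those of Efna3 and Ephb2 the richest, at 55.0%.

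Because the deleted gene encodes a homeodomain factor, the promoters of the 7 genes were searched for TNAAGTG, the core of the site that NKX2-5 binds, on both strands. In the RefSeq promoters of GRCm38.p6 (250 bases before to 50 after each start), the motif occurred in 3790 of all 32851 promoters, in 6 of 62 promoters of the guidance genes past the filter and in 1 of the 8 of the called genes. That promoter was one of the pair listed for Efna3, at chr3:89322890-89323189 on the minus strand, and is printed with the match in capitals.
Efna3 promoter: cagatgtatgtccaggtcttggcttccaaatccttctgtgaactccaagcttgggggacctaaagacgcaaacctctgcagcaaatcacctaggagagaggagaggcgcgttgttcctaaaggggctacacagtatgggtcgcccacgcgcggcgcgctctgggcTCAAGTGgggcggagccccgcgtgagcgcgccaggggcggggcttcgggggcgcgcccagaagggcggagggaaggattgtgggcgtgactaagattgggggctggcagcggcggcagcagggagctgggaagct
The match is a description of these letters and not a binding site, and its part in the change of Efna3 was not tested.

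In TrbE10 hearts, the netrin receptor Unc5b and the ephrin Efnb2 rose, and the ephrin Efna3, the Eph receptor Ephb2 and the semaphorin Sema5b fell. In TrbE14 hearts Unc5b rose, and the neuropilin Nrp2 and the Nogo receptor Rtn4r fell. These were 5 of 63 member probes in TrbE10 hearts (7.94%), beside 1.69% of all probes, and 3 of 63 in TrbE14 hearts (4.76%), beside 0.602% of all probes. Unc5b was the 1 gene called in both comparisons, which share their control arrays. A filter blind to the groups, on 9 of the 12 arrays, removed Sema5b and Rtn4r, which had passed through the control group, and left 4 of 56 and 2 of 56 probes called, beside 1.75% and 0.498% of all probes past that filter. SAM at a false discovery rate of 5%, the kind of test named in the methods, called Efna3, Efnb2 and Unc5b in TrbE10 hearts and Rtn4r and Unc5b in TrbE14 hearts, beside 2.12% and 1.22% of all probes.

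Over the 55 genes, each read by its brightest probe, the log2 changes had a median of -0.05 (TrbE10) and -0.01 (TrbE14), beside -0.02 and -0.03 over all 18021 genes, and 24 and 27 of the 55 were above 0. The median size of the change, without its sign, was 0.25 and 0.23, beside 0.15 and 0.15 over all genes. Arrays of mutant and control did not overlap for 13 of 63 probes in TrbE10 hearts, beside 10.1% of all probes, and for 12 of 63 in TrbE14 hearts, beside 9.43%. At an unadjusted p under 0.05 by limma there were 21 and 17 of the 63 probes, beside 16.4% and 13.6% of all probes. These values include the 9 probes that passed the filter through 1 or 2 groups. The filter blind to the groups was applied to the calls and not to these values. Members also varied more within groups, with a median standard deviation of 0.25, beside 0.21 over all genes.

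**Figure D1:**
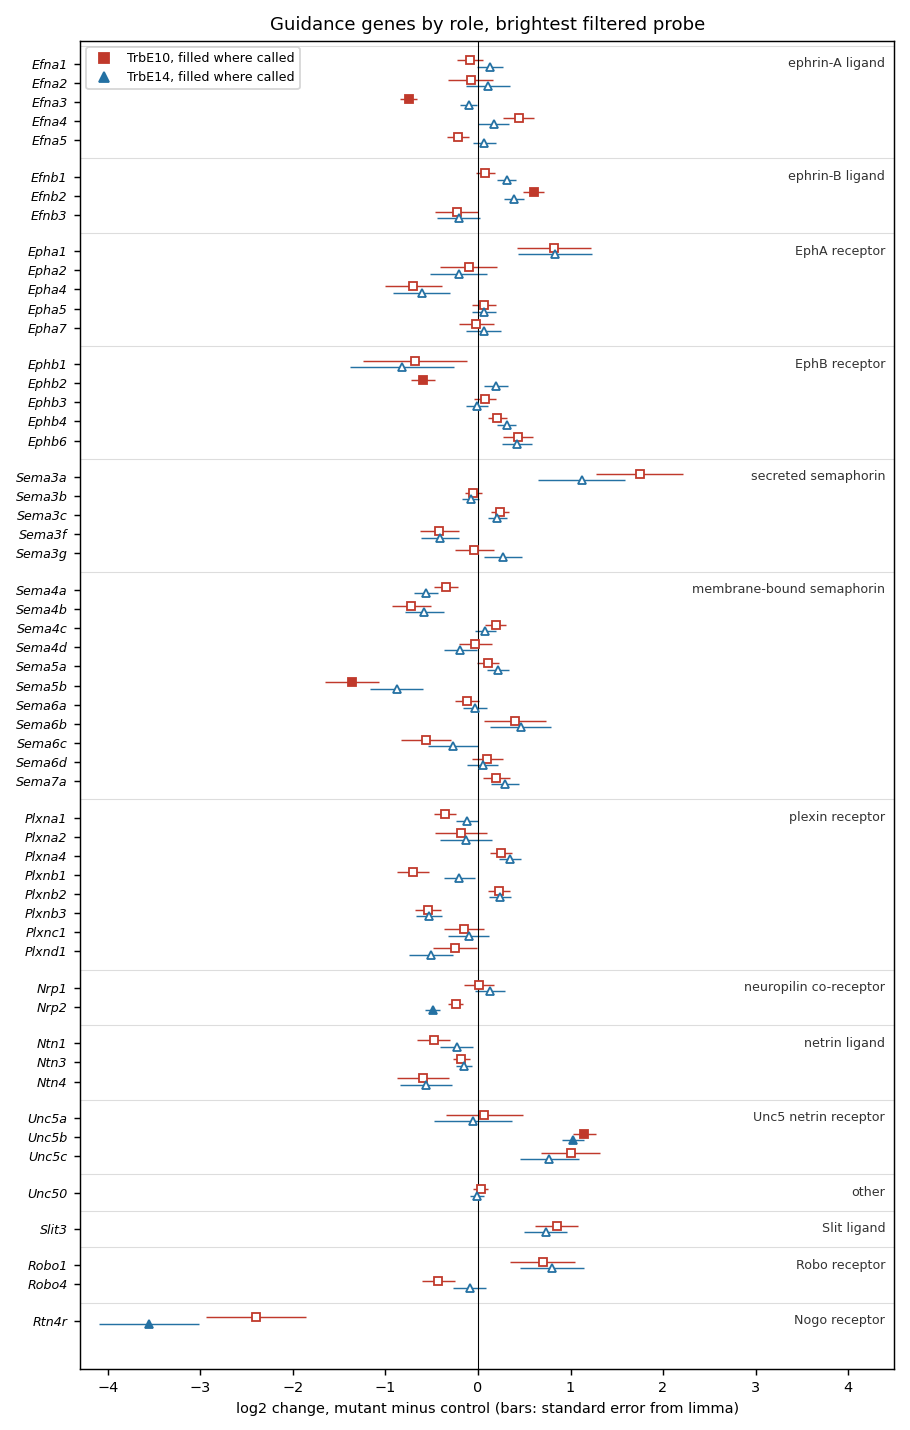
The horizontal axis gives the log2 change of each of 55 guidance genes, mutant minus control, as squares for TrbE10 and triangles for TrbE14, with bars for the standard error from limma and genes grouped by role on the vertical axis. Filled markers, which are called genes, stand at Unc5b in both mutants, at Efnb2, Efna3, Ephb2 and Sema5b in TrbE10 and at Nrp2 and Rtn4r in TrbE14. The median size of the change over the 55 genes is 0.25 in TrbE10 and 0.23 in TrbE14. Some open markers lie far from 0, such as Rtn4r at -2.40 in TrbE10 and Sema3a at 1.75 in TrbE10 and 1.12 in TrbE14.

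Unc5b, the netrin receptor of sprouting and arterial endothelium, had the smallest adjusted p of the members. Its log2 signal was 9.77, 10.06, 10.02 and 10.01 in the 4 control hearts, 11.22, 11.00, 11.18 and 11.06 in TrbE10 hearts and 11.10, 11.18, 11.00 and 10.69 in TrbE14 hearts. All 8 mutant hearts lay above all 4 controls. In TrbE10 hearts Unc5b rose by 1.15 on the log2 scale, 2.22-fold (SE 0.12, limma adjusted p = 0.000695), and in TrbE14 hearts it rose by 1.03, 2.04-fold (SE 0.12, limma adjusted p = 0.00214). The mutants themselves differed by 0.12, within their spread.

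The other Unc5 receptors were not called. Unc5c, which was well above background on 1 control array, 3 TrbE10 arrays and 2 TrbE14 arrays, had log2 changes of 1.00 (SE 0.32, limma adjusted p = 0.151) and 0.77 (SE 0.32, limma adjusted p = 0.332). In TrbE10 hearts Unc5c was called with sex as a covariate and without TrbE10 replicate 2. Unc5a differed by 0.07 and -0.05, with single hearts far from the rest, 8.64 in control 2 against 7.29 to 7.41 in the other controls. Of the netrins, the ligands of these receptors, the 3 that passed had values below 0 in both mutants and none was called. Ntn1, the founding netrin, had -0.48 (SE 0.18, limma adjusted p = 0.212) and -0.23, Ntn4, a netrin of basement membranes, -0.59 and -0.56, and Ntn3 -0.18 and -0.15. The Ntn4 probe was well above background on 4 control, 2 TrbE10 and 3 TrbE14 arrays.

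Efnb2, the transmembrane ephrin that marks arterial endothelium, read 8.74, 9.01, 9.17 and 8.96 in controls, 9.52, 9.46, 9.80 and 9.50 in TrbE10 hearts and 9.29, 9.45, 9.32 and 9.37 in TrbE14 hearts. TrbE10 hearts were highest, TrbE14 hearts were between, and none of the 3 groups overlapped another. Efnb2 rose by 0.60 in TrbE10 hearts, 1.51-fold (SE 0.11, limma adjusted p = 0.0213). In TrbE14 hearts the change of 0.39 was not called (SE 0.11, limma adjusted p = 0.165). Between the mutants Efnb2 differed by 0.21 (SE 0.11, limma adjusted p = 0.894). Without control 1, control 4 or TrbE10 replicate 3 the TrbE10 call of Efnb2 was lost, with limma adjusted p of 0.0506, 0.0662 and 0.0605, and likewise with only the 2 groups compared (0.0674 by limma).

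Ephb4, the venous receptor of Efnb2, was higher on every mutant array than on any control array by its brighter probe, but by little. Control hearts read 10.20, 10.26, 10.20 and 10.14, TrbE10 hearts 10.30, 10.29, 10.38 and 10.67 and TrbE14 hearts 10.40, 10.41, 10.58 and 10.67. The log2 changes of 0.21 (SE 0.10, limma adjusted p = 0.332) and 0.31 (SE 0.10, limma adjusted p = 0.233) were not called. The dimmer probe of Ephb4 gave 0.17 and 0.46, with overlapping groups. The other B ephrins, Efnb1 and Efnb3, had 0.08 and -0.23 in TrbE10 hearts and 0.31 and -0.21 in TrbE14 hearts.

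Efna3, an ephrin tethered to the membrane by a lipid anchor, separated TrbE10 hearts, whose arrays lay alone on their slide, from both other groups. It read 7.84, 7.79, 7.83 and 7.68 in controls, 7.06, 7.21, 7.03 and 6.85 in TrbE10 hearts and 7.57, 7.80, 7.72 and 7.63 in TrbE14 hearts. The 4 TrbE10 hearts lay below all 8 others, and control and TrbE14 hearts overlapped. Efna3 fell by 0.75 in TrbE10 hearts, to 0.594 of control (SE 0.09, limma adjusted p = 0.0025), and differed by -0.10 in TrbE14 hearts (SE 0.09, limma adjusted p = 0.623).

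The remaining A ephrins were not called. Efna4 was well above background on 3 TrbE10 arrays, 1 TrbE14 array and no control array (0 of 4), passed the filter through TrbE10 alone and was not called, at 0.44 (limma adjusted p = 0.229) and 0.17, with overlapping groups. Efna1, Efna2 and Efna5 lay between -0.22 and 0.13 in both mutants.

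Ephb2, a receptor tyrosine kinase for B ephrins, was also lowest in TrbE10 hearts. It read 7.26, 7.04, 7.55 and 7.51 in controls, 6.78, 6.74, 6.73 and 6.76 in TrbE10 hearts and 7.55, 7.27, 7.76 and 7.54 in TrbE14 hearts. The TrbE10 hearts were nearly alike (SD 0.02, n = 4) and lay below all others. Slide and group cannot be told apart here either. Ephb2 fell by 0.59 in TrbE10 hearts (SE 0.13, limma adjusted p = 0.0459) and differed by 0.19 in TrbE14 hearts (SE 0.13, limma adjusted p = 0.525). The TrbE10 call was near the threshold and stayed past it in 3 of 12 fits with 1 array left out. It was lost without control 1, control 3, control 4, any TrbE10 array, TrbE14 replicate 1 or TrbE14 replicate 4, with limma adjusted p from 0.061 to 0.124. It was also lost with sex as a covariate, with no filter and with only the 2 groups compared, at limma adjusted p of 0.0573, 0.1 and 0.0718.

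Of the other Eph receptors, Ephb6, whose kinase domain is inactive, read 6.12 to 6.46 in controls, 6.37 to 7.19 in TrbE10 hearts and 6.58 to 6.89 in TrbE14 hearts. Its changes of 0.43 (limma adjusted p = 0.21) and 0.42 (limma adjusted p = 0.292) were not called. Epha1, the first Eph receptor found, was well above background on 1 control array, 2 TrbE10 arrays and all 4 TrbE14 arrays, and its values of 0.82 and 0.83 were not called (SE 0.40, limma adjusted p = 0.333 and 0.384). They were 0.32 and 0.34 without control 3, 0.13 and 0.19 with normexp and 0.01 and 0.04 in the authors' values. Epha4, which binds ephrins of both classes, had -0.70 and -0.61 with overlapping groups. Ephb1 was the most variable member, with a standard deviation within groups of 0.87, and 1 heart each stood high in control, at 8.95, and in TrbE14, at 8.48.

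**Figure D2:**
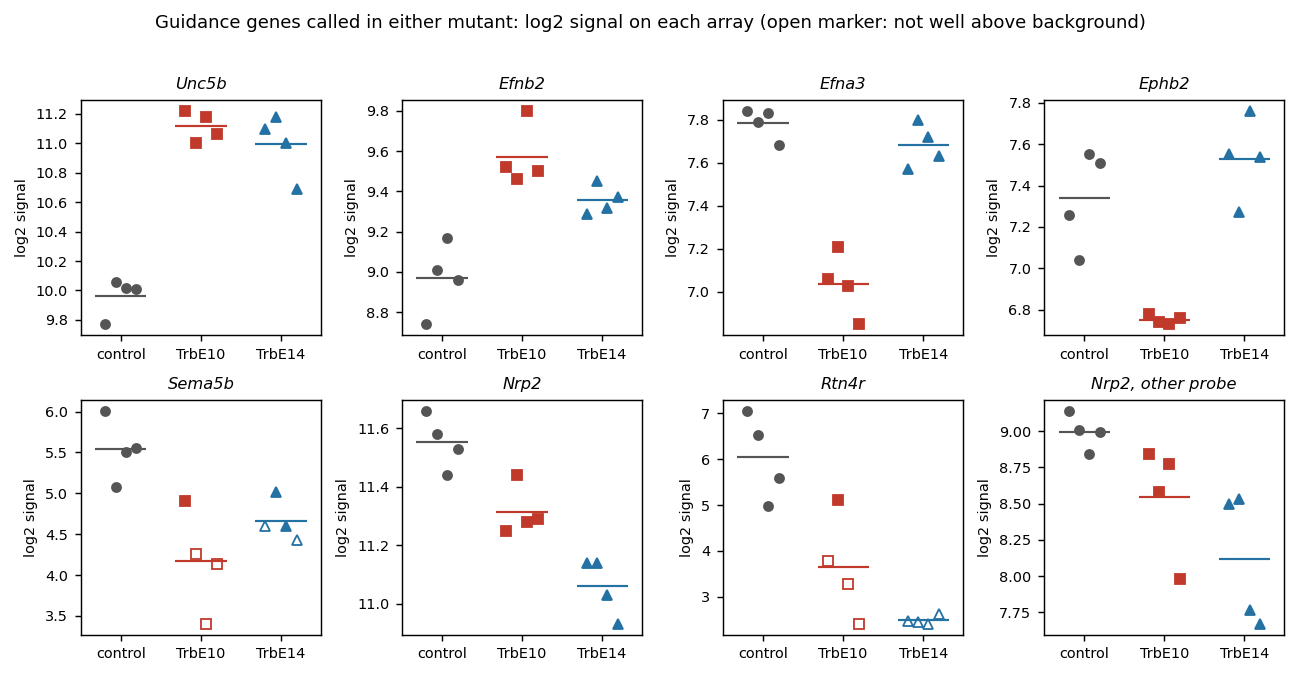
Each panel gives the log2 signal (vertical axis) of 1 called guidance gene on the 4 control, 4 TrbE10 and 4 TrbE14 arrays, with a line at the group mean and open markers where the probe was not well above background. Unc5b is higher in both mutants, Efna3 and Ephb2 are lower in TrbE10, and Rtn4r lies at the floor on all TrbE14 arrays.

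Among semaphorins, Sema5b, a transmembrane protein with thrombospondin repeats, was called. It read 6.01, 5.08, 5.51 and 5.55 in controls, 4.91, 4.26, 3.40 and 4.14 in TrbE10 hearts and 4.60, 5.01, 4.60 and 4.43 in TrbE14 hearts. All mutant hearts lay below all controls, but the probe was well above background on 1 TrbE10 and 2 TrbE14 arrays only. Sema5b fell by 1.36 in TrbE10 hearts (SE 0.29, limma adjusted p = 0.0409) and had a change of -0.88 in TrbE14 hearts (SE 0.29, limma adjusted p = 0.236). The size of this change differed with the processing. Normexp gave -0.37 and no call (limma adjusted p = 0.0825), and the authors' normalized values gave -0.57 and a call (limma adjusted p = 0.042). The call was also lost in 10 of 12 fits with 1 array left out, where limma adjusted p ran to 0.0997, and was kept without control 2 or TrbE10 replicate 1. It was lost as well with no filter and with only the 2 groups compared, at limma adjusted p of 0.109 and 0.0899. The other probes of Sema5b did not pass the filter.

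Sema3a, a secreted repellent that shapes the sympathetic innervation of the heart, was not called. It read 5.13, 4.49, 2.80 and 2.76 in controls, 5.18, 5.72, 5.42 and 5.84 in TrbE10 hearts and 4.62, 5.21, 5.12 and 4.70 in TrbE14 hearts. The probe was well above background on 1 control array, all TrbE10 arrays and 2 TrbE14 arrays, so the spread among controls is that of a dim probe. The log2 change was 1.75 in TrbE10 hearts (SE 0.47, limma adjusted p = 0.0918) and 1.12 in TrbE14 hearts (SE 0.47, limma adjusted p = 0.335). With normexp the TrbE10 value was 0.45 (limma adjusted p = 0.0593). In TrbE10 hearts it passed without control 1, at 2.19 (limma adjusted p = 0.0286), and in the authors' normalized values, at 0.63 (limma adjusted p = 0.0161).

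Sema4a, a membrane-bound semaphorin known from immune cells, read 8.06, 8.41, 8.68 and 8.27 in controls, 7.96 to 8.11 in TrbE10 hearts and 7.62 to 8.02 in TrbE14 hearts. The TrbE14 hearts lay below all controls, and the change of -0.56 was not called (SE 0.13, limma adjusted p = 0.0967). Of the 5 secreted and 11 membrane-bound semaphorins tested, the medians were -0.04 and -0.03 in TrbE10 hearts and 0.21 and -0.03 in TrbE14 hearts. Sema4b had -0.72 and -0.58, Sema3f -0.42 and -0.41 and Sema6b 0.40 and 0.46, all with overlapping groups.

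Nrp2, the neuropilin of venous and lymphatic endothelium that binds secreted semaphorins and VEGF-C, fell in TrbE14 hearts. By its brighter probe it read 11.66, 11.58, 11.44 and 11.53 in controls, 11.25, 11.44, 11.28 and 11.29 in TrbE10 hearts and 11.14, 11.14, 11.03 and 10.93 in TrbE14 hearts. TrbE14 hearts lay lowest and TrbE10 hearts between, with the highest TrbE10 heart just under the lowest control. Nrp2 fell by 0.49 in TrbE14 hearts, to 0.711 of control (SE 0.08, limma adjusted p = 0.0238), and its change in TrbE10 hearts of -0.24 was not called (SE 0.08, limma adjusted p = 0.18). The other probe of Nrp2 gave -0.88 (SE 0.23, limma adjusted p = 0.142) and -0.45 (SE 0.23, limma adjusted p = 0.368), again with no overlap with control. The TrbE14 call was lost without control 1, 2 or 4 or TrbE14 replicate 2, 3 or 4, with limma adjusted p from 0.0502 to 0.0769, and with only the 2 groups compared (0.0625 by limma). Nrp1, its relative, differed by 0.01 and 0.13.

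The plexins, which transmit the semaphorin signal, were not called, and 6 of 8 had values below 0 in each mutant. Plxnb3 read 8.23, 8.01, 8.43 and 8.32 in controls, 7.80, 7.86, 7.40 and 7.76 in TrbE10 hearts and 7.73, 8.0, 7.55 and 7.58 in TrbE14 hearts. All mutant hearts lay below all controls, at -0.54 (SE 0.14, limma adjusted p = 0.079) and -0.53 (SE 0.14, limma adjusted p = 0.133). Plxnb1, the receptor of Sema4d, read 8.65 to 8.86 in controls, 7.57 to 8.30 in TrbE10 hearts and 8.25 to 8.90 in TrbE14 hearts. Its change in TrbE10 hearts of -0.70 (SE 0.17, limma adjusted p = 0.07) was called with normexp background correction, in the authors' normalized values and without TrbE10 replicate 2, with limma adjusted p of 0.0439, 0.0493 and 0.0497. Plxnd1, an endothelial plexin, had -0.25 and -0.51.

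Slit3, the 1 Slit that passed the filter, read 8.22, 7.04, 7.73 and 7.86 in controls, 8.76, 8.57, 8.25 and 8.68 in TrbE10 hearts and 8.12, 8.37, 8.67 and 8.62 in TrbE14 hearts. TrbE10 hearts lay above all controls and TrbE14 hearts overlapped control 1. The changes of 0.85 (SE 0.23, limma adjusted p = 0.0906) and 0.73 (SE 0.23, limma adjusted p = 0.215) were not called. Of its receptors, Robo1 had 0.70 and 0.80 with 1 control array well above background, and Robo4, the Robo of endothelium, had -0.43 and -0.09.

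**Figure D3:**
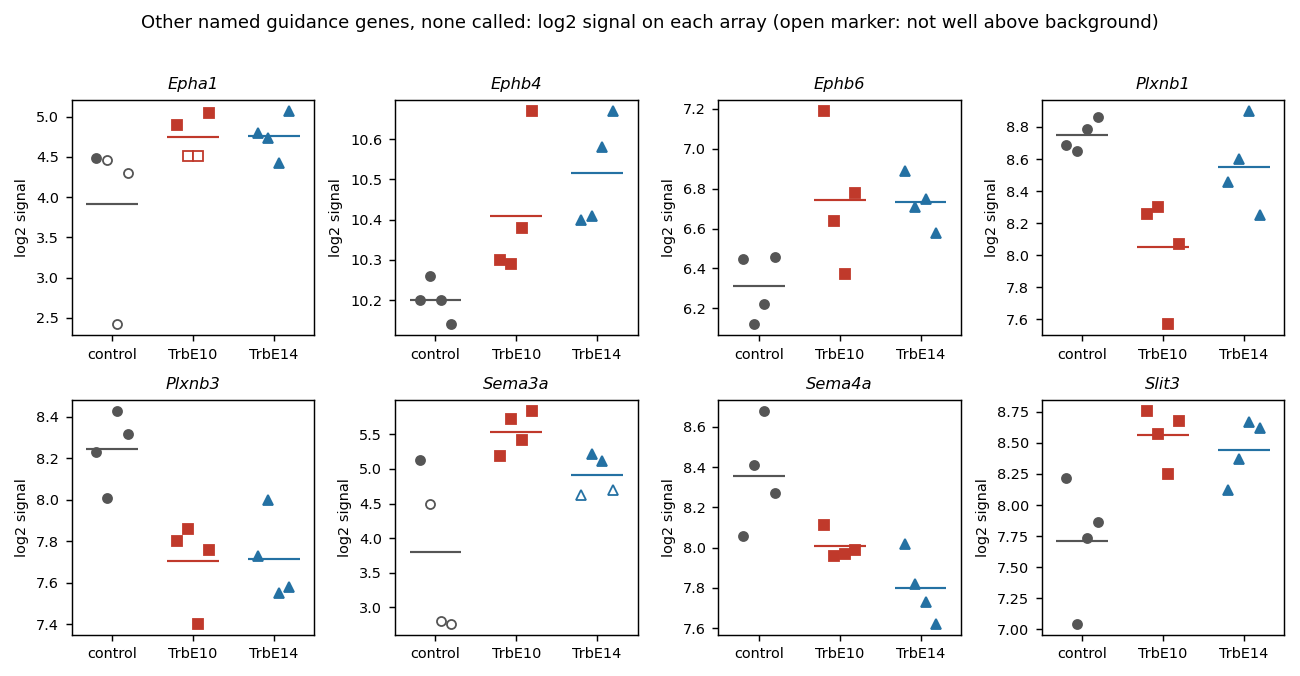
Each panel gives the log2 signal (vertical axis) of 1 named guidance gene that was not called, on 4 arrays per group, with a line at the group mean and open markers where the probe was not well above background. Plxnb3 lies lower and Ephb4 higher in both mutants without overlap with control, and the control arrays of Sema3a range from 2.76 to 5.13.

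Rtn4r, the lipid-anchored receptor for Nogo, fell in TrbE14 hearts. It read 7.06, 6.54, 4.99 and 5.58 in controls, 3.77, 5.12, 3.27 and 2.40 in TrbE10 hearts and 2.47, 2.44, 2.40 and 2.62 in TrbE14 hearts. The probe was well above background on all 4 control arrays, on 1 TrbE10 array and on none of the TrbE14 arrays (0 of 4), so the TrbE14 level has only an upper bound. With the processing used here Rtn4r was at least 3.26-fold lower in TrbE14 hearts, a bound that does not hold under every alternative. The measured log2 means were 2.48 and 6.04, and the call is for these measured values (limma adjusted p = 0.0139). In TrbE10 hearts, of which 1 overlapped the controls, the change of -2.40 was not called (SE 0.54, limma adjusted p = 0.0525).

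The call for Rtn4r in TrbE14 hearts was kept in all 12 fits with 1 array left out, at limma adjusted p from 0.00407 to 0.0485. With normexp the TrbE14 change was smaller, at -1.07, and was called (limma adjusted p = 0.0162). In the authors' normalized values it was -1.01 and was not called (limma adjusted p = 0.182). The TrbE10 change passed the threshold with scaling to the 75th percentile (limma adjusted p = 0.031), with sex as a covariate (0.0447 by limma), without control 3 (0.0498 by limma) and without TrbE10 replicate 2 (0.0104 by limma). It did not pass with no filter (0.138 by limma) or with only the 2 groups compared (0.116 by limma), and it was smaller and not called with normexp, at -0.66 (limma adjusted p = 0.0789), and in the authors' values, at -1.02 (limma adjusted p = 0.118). Among its ligands and partners, Rtn4, which is Nogo itself, rose by 0.79 in TrbE10 hearts (SE 0.14, limma adjusted p = 0.018) and had 0.63 in TrbE14 hearts (SE 0.14, limma adjusted p = 0.0754). Of 8 listed partners 4 were measured, and the others of these, Ngfr, Rtn4rl1 and Tnfrsf19, were not called.

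When the mutants were compared with each other, no member was called by limma or SAM (0 of 63), nor was any other probe (0%). At an unadjusted p under 0.05 there were 6 of 63 member probes, beside 5.76% of all probes. The log2 signal of Ephb2 differed by -0.78, TrbE10 minus TrbE14, (SE 0.13, limma adjusted p = 0.15) and that of Efna3 by -0.65 (SE 0.09, limma adjusted p = 0.141). Groups did not overlap for 4 of 63 probes, those of Ephb2, Efna3, Efnb2 and Nrp2, beside 3.16% of all probes. The difference between TrbE10 and TrbE14 hearts at Efna3 and Ephb2 was thus larger than the spread within groups and did not pass the adjustment over all probes. Slide and group cannot be told apart in this comparison.

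Partners and effectors of the same pathways were followed as lists. Of 72 listed genes 59 were measured. In TrbE10 hearts 1 of the 59 was called, Rtn4, which rose, beside 231 that rose and 117 that fell of all 18021 genes. For TrbE14 the count was 0 of 59, beside 96 that rose and 23 that fell of all genes. The 59 genes had a median log2 change of 0.08 and 0.09, beside -0.02 and -0.03 over all genes. The 13 netrin and Slit partners had medians of 0.03 and 0.02, and in them the netrin receptor Dcc had 0.97 (limma adjusted p = 0.184) and 0.08. The 21 semaphorin co-receptors and effectors had medians of 0.13 and 0.11, the 12 Eph and ephrin effectors -0.06 and -0.08, and the 9 shared regulators of the cytoskeleton, such as the small GTPases, 0.18 and 0.11.

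Markers of cell types were also followed as lists. The mean log2 signal of 8 arterial endothelial markers ranged from 7.92 to 8.31 in controls, from 8.47 to 8.73 in TrbE10 hearts and from 8.24 to 8.65 in TrbE14 hearts, the last overlapping control. Values were above 0 for 6 of the 8 in TrbE10 and 5 in TrbE14 hearts. Of the 8, 1 was called in each mutant, the Notch target Hey1, which rose by 0.88 and 1.09 (limma adjusted p = 0.00398 and 0.00161). The list includes Gja5, the gene that holds the Cre in the mutants, at -0.64 and -0.47 (limma adjusted p = 0.41 and 0.572). Of 9 endothelial markers 8 had values above 0 in each mutant, with list means from 10.55 to 10.71 in controls, 10.71 to 10.97 in TrbE10 and 10.86 to 11.10 in TrbE14 hearts. For Unc5b and Efnb2, genes of arterial endothelium, the part of these markers in the result was not tested.

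The 6 venous and lymphatic endothelial markers had list means from 8.72 to 8.98 in controls, 8.35 to 9.11 in TrbE10 and 8.31 to 9.03 in TrbE14 hearts. Values were above 0 for 1 of the 6 in TrbE10 and 2 in TrbE14 hearts, with medians of -0.1 and -0.22. The 1 called higher in both mutants was Vwf, while Nrp2 was lower. The 7 nerve and glial markers measured, of 10 listed, had list means that overlapped between all groups, from 7.13 to 7.45, 7.24 to 7.51 and 7.09 to 7.60. Values were above 0 for 2 of the 7 in TrbE10 and 3 in TrbE14 hearts, with medians of -0.21 and -0.1, and none was called by limma. The 10 macrophage markers had means from 8.84 to 8.89 in controls, 9.34 to 9.72 in TrbE10 and 9.17 to 9.33 in TrbE14 hearts. Of the 10, 5 and 1 were called higher, beside 231 and 96 of all 18021 genes. The 9 fibroblast markers had means from 10.71 to 10.99 in controls, 11.09 to 11.54 in TrbE10 and 10.97 to 11.49 in TrbE14 hearts, with 9 and 8 above 0, medians of 0.46 and 0.43 and 1, Dcn, called higher in each. The 8 mural cell markers had means from 10.51 to 10.91 in controls, 10.66 to 11.03 in TrbE10 and 10.92 to 11.36 in TrbE14 hearts, with 5 and 7 above 0 and medians of 0.01 and 0.52, and 1, Pdgfrb, was called higher in TrbE10 hearts. Of the 4 atrial markers 1, Sln, was called higher in TrbE10 hearts, and of the 4 conduction system and 2 mesothelial markers measured none was called by limma. Their part in the values of Sema4a, Slit3 and the called genes was not tested.

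**Figure D4:**
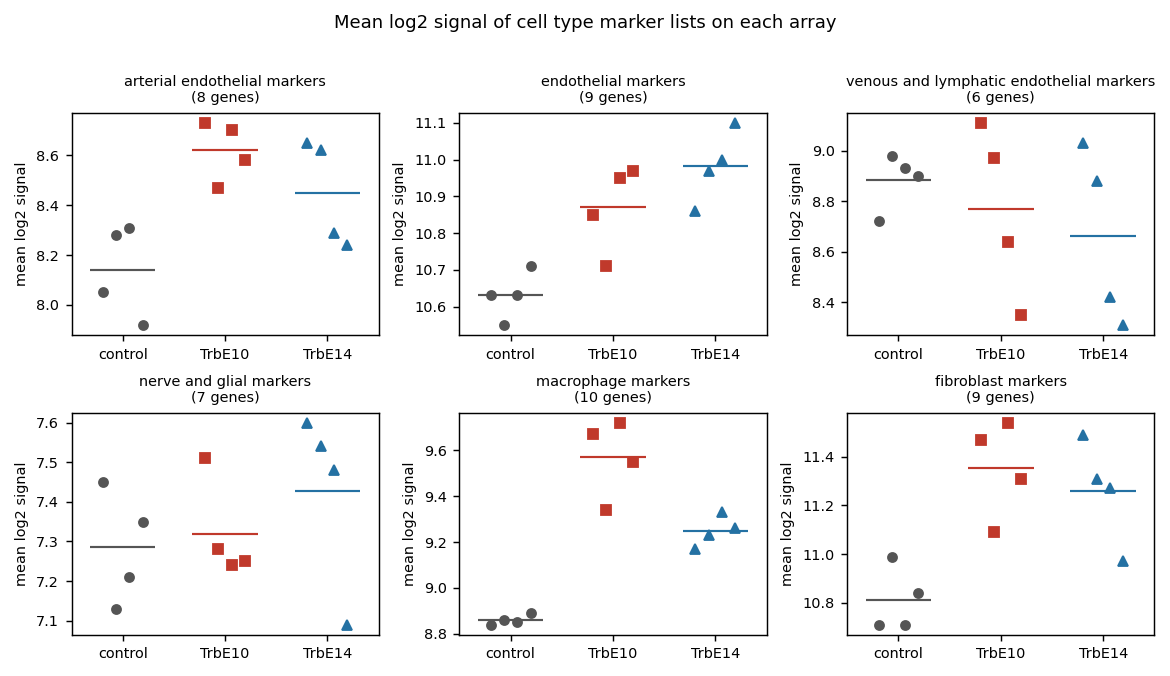
Each panel gives the mean log2 signal (vertical axis) of 1 list of cell type markers on each array, by group, with a line at the group mean. Macrophage markers lie higher in both mutants than in controls without overlap. So do arterial and fibroblast markers in TrbE10 hearts and endothelial markers in TrbE14 hearts, and nerve and glial markers overlap in all groups.

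For members with several probes the probes were read separately. Of 25 genes with several probes on the array, 8 had more than 1 past the filter. Both probes of Nrp2, Ephb4, Ntn1 and Plxnd1 had the same sign in both mutants, and those of Plxna2 differed, at -0.18 and 0.04 in TrbE10 hearts and -0.13 and 0.33 in TrbE14 hearts. The array files place the brighter Plxna2 probe on chromosome 1 and the dimmer on chromosome 14, so the gene name of the dimmer one is uncertain. In TrbE14 hearts the probes of Sema6c (-0.27 and 0.02) and Sema6d (0.05 and -0.01) also differed in sign. Sema3g had -0.04 and 0.38 in TrbE10 hearts by its brighter and dimmer probe. Unc50, caught by its name, gave 0.03 and -0.01, and had the smallest spread within groups of the members (SD 0.09), beside a median of 0.25 over members and 0.21 over all genes.

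The calls differed in how far they rested on single arrays. Unc5b in both mutants, Efna3 in TrbE10 hearts and Rtn4r in TrbE14 hearts stayed past the threshold in all 12 fits with 1 array left out. The count of member probes called in TrbE10 hearts ranged from 2 to 6 over these fits, lowest without control 4 or TrbE10 replicate 3. In TrbE14 hearts it ranged from 2 to 3. The share of all probes called ranged from 0.637% to 2.93% in TrbE10 hearts and from 0.333% to 0.778% in TrbE14 hearts. Without the 3 arrays of lowest Dbp, a setting chosen after seeing the data, Efna3, Rtn4r and Unc5b were called in TrbE10 hearts and Rtn4r and Unc5b in TrbE14 hearts.

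**Figure D5:**
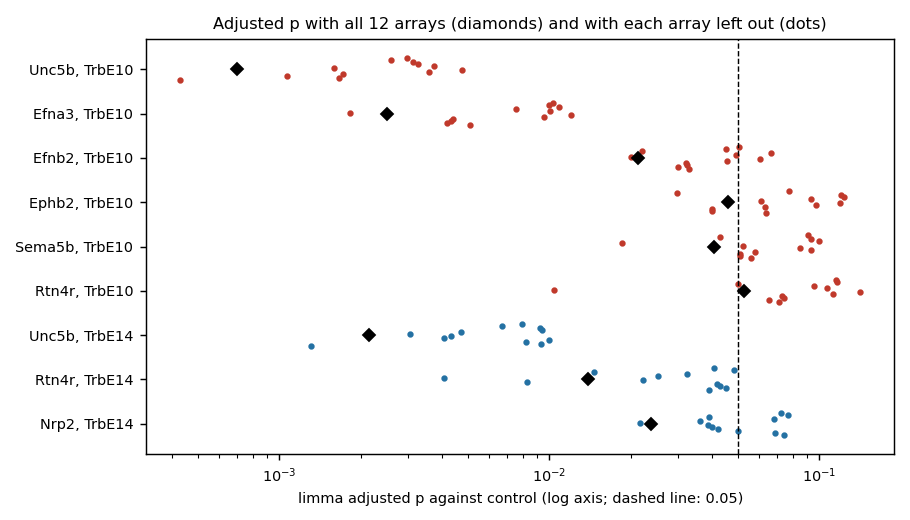
The horizontal axis is a log axis of the limma adjusted p for 9 gene and mutant pairs, with a diamond for all 12 arrays, a dot for each fit with 1 array left out and a dashed line at 0.05. The dots of Unc5b and Efna3 and those of Rtn4r in TrbE14 lie left of the line, and those of Ephb2 and Sema5b lie mostly right of it.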

How the data were processed

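Left ventricular RNA of 12 mice was labelled with Cy3 and hybridized to one-colour Agilent arrays. The authors deposited the intensity of each spot from Agilent Feature Extraction 10.5, with the background already subtracted. They also deposited log2 values, quantile normalized and filtered on background, for 22114 probes (64 of them members), used as an alternative. Here control spots were removed, outlier spots set to missing, processed intensities log2-transformed and quantile normalized, spots of a probe averaged, and a model with 1 mean per group fitted with limma 3.58.1 in R 4.3.3 over 24593 probes. Figures used Python 3.11.15 and matplotlib 3.10.9. Every adjusted p is limma's, by the Benjamini-Hochberg method, unless SAM is named. On simulated data for TrbE10 versus control, with all 24593 probes, limma recovered 31.3%, 68.7% and 84.8% of probes changed by 0.5, 1 and 2 log2 units. A level with only a bound was set against the mean, over the arrays of that group, of the lowest signal well above background or the probe's own if higher. The text names genes called in either mutant, Ephb2, Efna3 and Rtn4r, and per mutant the up to 10 largest changes among genes without overlap with control (10 in TrbE10 and 9 in TrbE14), with other members added after their values were seen. The members and lists were chosen with earlier results of these data known. Alternatives were 75th percentile scaling, normexp (offset 50), a filter on 9 arrays, no filter, the authors' log2 values, a fit of 2 groups, a block for the replicate number, sex (from Y-linked probes) as a covariate, SAM and each array left out. All 73 gene names matched RefSeq symbols. Other data types of the study were not analysed here.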

Additional observations from a re-analysis of the deposited data

Results flagged for a closer look

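In 45 groups of 4 arrays, 3 for each of 15 named genes, 2 held an array far from the rest by Dixon's criterion, which chance gives in about 1 of 20 groups. For Epha1, control 3 read 2.42 where the other controls read 4.30 to 4.49, and the probe was not well above background there. Without that array the values of Epha1 were 0.32 in TrbE10 and 0.34 in TrbE14 hearts, from 0.82 and 0.83. For Unc5b, control 1 read 9.77 where the others read 10.01 to 10.06, and without that array the called rise of Unc5b stayed past the threshold in both mutants.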

How the results depend on the processing

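Unc5b in both mutants and Efna3 in TrbE10 hearts were called under every alternative run for single genes. The count of member probes called in TrbE10 hearts was 5, beside 1.69% of all probes. It became 3 with no filter (0.354% of all probes), 2 with only the 2 groups compared (1.11%) and 3 by SAM (2.12%). Without the 3 arrays of lowest Dbp (chosen after seeing the data) it was 3 (1.45%), and with each array left out 2 to 6 (0.637% to 2.93%). The authors' values added Plxnb1 and Sema3a (2.56%), and 75th percentile scaling added Rtn4r (2.01%). With sex as a covariate Rtn4r and Unc5c were added and Ephb2 was lost (2.42%). The TrbE14 count of 3 and the count of 0 between the mutants moved by no more than 1.5 times under the alternatives run. With each array left out the TrbE14 count ranged from 2 to 3, beside 0.333% to 0.778% of all probes. Between the mutants, differences near 0 changed sign. Ephb6 (0.01) gave -0.01 with 75th percentile scaling, -0.03 with normexp, -0.01 in the authors' values and -0.14 to 0.14 with arrays left out. Epha1 (-0.01) gave 0.05 with sex as a covariate, 0.06 without the lowest Dbp arrays and -0.13 to 0.09 with arrays left out. Plxnb3 (-0.01) gave 0.01, 0.03 and -0.07 to 0.09 under the same settings. Rtn4r, whose difference of 1.16 was not near 0, gave -0.01 in the authors' values. The cause of these changes was not tested. The share of higher among all called probes was 63.9% in TrbE10 hearts and 51.9% with 75th percentile scaling, where the median of all probes was -0.08, and was 77.7% in TrbE14 hearts and 66.2% with normexp. Deviations of same-numbered arrays correlated at -0.19 to 0.08 (TrbE10 and control) and -0.24 to -0.03 (TrbE14 and control), and between the mutants at 0.37, 0.31, -0.01 and 0.48. Since not every pair was above 0.1, numbers were not taken to pair the samples. With the replicate number as a block, 4, 3 and 0 member probes were called, beside 1.28%, 0.594% and 0.00407% of all probes. Sema5b was then lost in TrbE10 hearts (limma adjusted p = 0.0544). Dim probes limit Sema5b, Sema3a, Epha1, Unc5c, Robo1, Ntn4 and Rtn4r.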

Other observations

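In each group 1 heart had a Dbp signal well under the others, at 11.21 in control 1, 11.81 in TrbE10 replicate 2 and 11.98 in TrbE14 replicate 2, where the other 9 hearts read at least 13.42. Dbp is an output gene of the circadian clock. Among 55 members these 3 hearts were the lowest of their group for Sema3b alone, beside 2.06% of all genes, and the highest for Efna3 alone, beside 3.42%. Sema3b, a secreted semaphorin, read 11.14, 11.10 and 11.08 in them. Sema3b was not called in either mutant, and its standard deviation within groups was 0.11. Members of this kind were no more frequent than among all genes. A relation to Dbp was not tested, and the pattern was noticed after the values were seen.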
